A study of Mus musculus with 6 samples.

Results

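Genes of the integrated stress response and of the unfolded protein response of the endoplasmic reticulum (ER) were measured in mouse embryonic stem (ES) cells. The cells had or lacked an induced deletion of Scc1, a gene of the cohesin complex, and cohesin itself was not measured. The 47 genes were chosen by name: kinases of the translation factor eIF2alpha, the sensors of ER stress, the transcription factors they act through, and the known targets of these factors. A probe set of its own was measured for 46 of them, among 19938 genes in all, and Pycr1 was not analysed here. The 6 samples were 3 cultures with both alleles of Scc1 flanked by lox sites (lox/lox) and 3 with wild-type alleles (wt/wt). All carried ERT2-Cre, in which the recombinase is held in the cytoplasm until its ligand 4-hydroxytamoxifen (4-OHT) is given, and all had received 4-OHT for 24 h. The dose is 80 nM in the sample labels and in mM in the design text. The cells were female, of a mixed C57BL/129 background, and grew without serum in N2B27 medium with the cytokine LIF and the inhibitor mix 2i, which keeps ES cells naive. Scc1 is the older name of Rad21, the subunit that closes the cohesin ring. Cultures without 4-OHT were not analysed here, so loss of Rad21 and earlier differences between the cell lines cannot be told apart.

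Cells meet amino acid shortage, haem shortage or misfolded protein in the ER by phosphorylating eIF2alpha, which slows general translation and favours translation of the transcription factor Atf4. Atf4, with C/EBP partners and later Ddit3 (CHOP), switches on genes for amino acid synthesis, transport and redox balance, and the phosphatase subunit Ppp1r15a ends the response. In parallel the ER sensors Ern1 (IRE1) and Atf6 raise chaperones and the degradation machinery, Ern1 by splicing the RNA of Xbp1. Arrays read RNA amounts only, so neither phosphorylation, translation of Atf4 nor splicing of Xbp1 was measured.

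The promoters of some of these genes carry letters that match elements described for these factors. The windows are shown because the genes are grouped by element further on. The C/EBP-ATF element was searched as TGATGNAAN on both strands (NTTNCATCA when read on the other strand), in windows from 250 bases before to 50 after each RefSeq start of build GRCm38.p6. It was found for 8 of the 42 genes with such a window (19.0%) and for 4.496% of 27025 genes with a window. Each line below gives bases before the start, 5′ to 3′ on the strand of the gene, with the match in capitals.
Chac1, chr2:119351028-119351076, plus strand: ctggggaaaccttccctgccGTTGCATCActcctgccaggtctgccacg
Atf3, chr1:191183416-191183464, minus strand: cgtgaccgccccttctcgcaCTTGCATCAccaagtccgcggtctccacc
Vldlr, chr19:27216799-27216847, plus strand: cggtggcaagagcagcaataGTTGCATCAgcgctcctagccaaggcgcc
Asns, chr6:7693210-7693252, minus strand: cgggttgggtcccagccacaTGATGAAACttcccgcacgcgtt
Nupr1, chr7:126625553-126625601, minus strand: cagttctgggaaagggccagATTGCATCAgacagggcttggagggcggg
Herpud1, chr8:94386296-94386344, plus strand: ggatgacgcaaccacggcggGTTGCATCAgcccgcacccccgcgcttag
The other 2 matches were in the window of Trib3, at bases 14 to 22 after the start, and in that of Pycr1. The stricter form TGATGCAAT, which overlaps the first search, was found for Nupr1 and Pycr1 and for 0.222% of all genes with a window.

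The ER stress element was searched on both strands as CCAAT and CCACG separated by 9 bases of any kind (CGTGG and ATTGG on the other strand). It was found for 7 of the 42 genes (16.7%), and for 0.137% of all genes with a window. The 4 matches below are those of the cochaperone Dnajc3 and of 3 abundant chaperones, with the capitals again marking the match.
Dnajc3, chr14:118937807-118937865, plus strand: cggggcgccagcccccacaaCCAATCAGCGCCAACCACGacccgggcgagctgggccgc
Hspa5, chr2:34772005-34772063, plus strand: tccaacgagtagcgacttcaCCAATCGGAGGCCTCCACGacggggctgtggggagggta
Calr, chr8:84847055-84847113, minus strand: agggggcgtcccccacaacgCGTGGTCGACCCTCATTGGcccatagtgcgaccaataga
Canx, chr11:50325780-50325838, minus strand: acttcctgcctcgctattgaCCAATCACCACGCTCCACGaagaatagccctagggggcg
The other 3 genes with this element were Hsp90b1, Pdia6 and Creld2. The unfolded protein response element TGACGTGG was in 0 of the 42 windows and in 0.714% of all genes with a window. No gene had both the C/EBP-ATF and the ER stress element. The genes were chosen by name with known targets among them, so their shares beside those of all genes are a description and not a test. A match is a description of the letters, and binding was not measured.

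Rad21 stood at 6.08, 6.06 and 6.14 (log2 intensity) in lox/lox replicates 1 to 3, against 10.05, 9.99 and 10.01 in wt/wt replicates 1 to 3, a 15.2-fold lower level. The medians of the 6 arrays lay between 4.85 and 4.94. The 10 ES cell markers checked lay above the array median of 4.90 in both genotypes, with means from 7.77 to 13.07 in lox/lox and 8.43 to 13.25 in wt/wt cells. Of 9 fibroblast markers, which would show feeder cells, 4 lay above that median in each genotype, the highest mean being 6.37 for lox/lox and 6.14 for wt/wt, and none passed the test (1 had an unadjusted p under 0.05 in limma). Of 8 primitive endoderm markers 3 lay above it in each genotype, and 1 of the 8 passed, the laminin gene Lama1, with a log2 change of -0.36 (adjusted p = 0.0319). Among the 10 ES cell markers 5 fell, where 3.61% of all genes did so, and 1 rose, where 2.55% did so. The most changed was Klf4, a factor of the naive state, 2.35-fold lower. An unadjusted p under 0.05 was seen in 18.0% of all genes in limma. Of 6 trophectoderm markers 2 fell, Tfap2c and Gata3, and of 4 neural markers none passed in limma (1 had an unadjusted p under 0.05). The part of such differences in the results below was not tested, and in bulk RNA fewer cells of a type and less RNA per cell cannot be told apart. Within the genotypes lox/lox replicate 3 and wt/wt replicate 2 shared deviations across genes more than any other pair of arrays from different genotypes (correlation 0.322), and limma gave them the lowest array weights of the 6 (0.587 and 0.67), so results are also given without both. The 3 arrays per genotype limit the precision.

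Most stress response genes did not pass the test between the genotypes. Of the 46 measured, 5 fell and 1 rose in lox/lox cells and 40 did not pass, at a Benjamini-Hochberg adjusted p under 0.05 in limma. The 5 lower genes were Xbp1, Dnajc3, Chac1, Mthfd2 and Cth, and the higher gene was Ddit4. The 6 changes were between 1.31- and 1.80-fold. An unadjusted p under 0.05 in limma was found for 14 of the 46, where 18.0% of all genes had one. The share called was 13.0% of the 46, against 6.16% of all genes, or 10.9% against 3.61% for lower and 2.17% against 2.55% for higher calls. Log2 changes below 0 were seen in 32 of the 46 (69.6%), against 52.5% of all genes, and the median of the 46 was -0.10, against -0.01 for all genes. The 3 lox/lox arrays lay below the 3 wt/wt arrays in 10 of the 46, where 12.7% of all genes did so, and above them in 7, where 10.1% of all genes did so. No gene of the 46 passed in every fit with 1 array dropped, and the share of all genes that did so was not computed. The count of lower genes was 3 without lox/lox replicate 1, 0 without lox/lox replicate 2, 2 without wt/wt replicate 1 and 1 without wt/wt replicate 2, and Ddit4 was not called without lox/lox replicate 2 or 3 or wt/wt replicate 2 or 3. Without both lox/lox replicate 3 and wt/wt replicate 2 the count was 3 lower genes, Dnajc3, Mthfd2 and Vldlr, and Ddit4 was not called. When p-values were taken from a fit to all 35556 probe sets, Xbp1 alone passed (adjusted p = 0.0419), and the other 5 had adjusted p from 0.0696 for Dnajc3 to 0.133 for Ddit4.

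**Figure D1:**
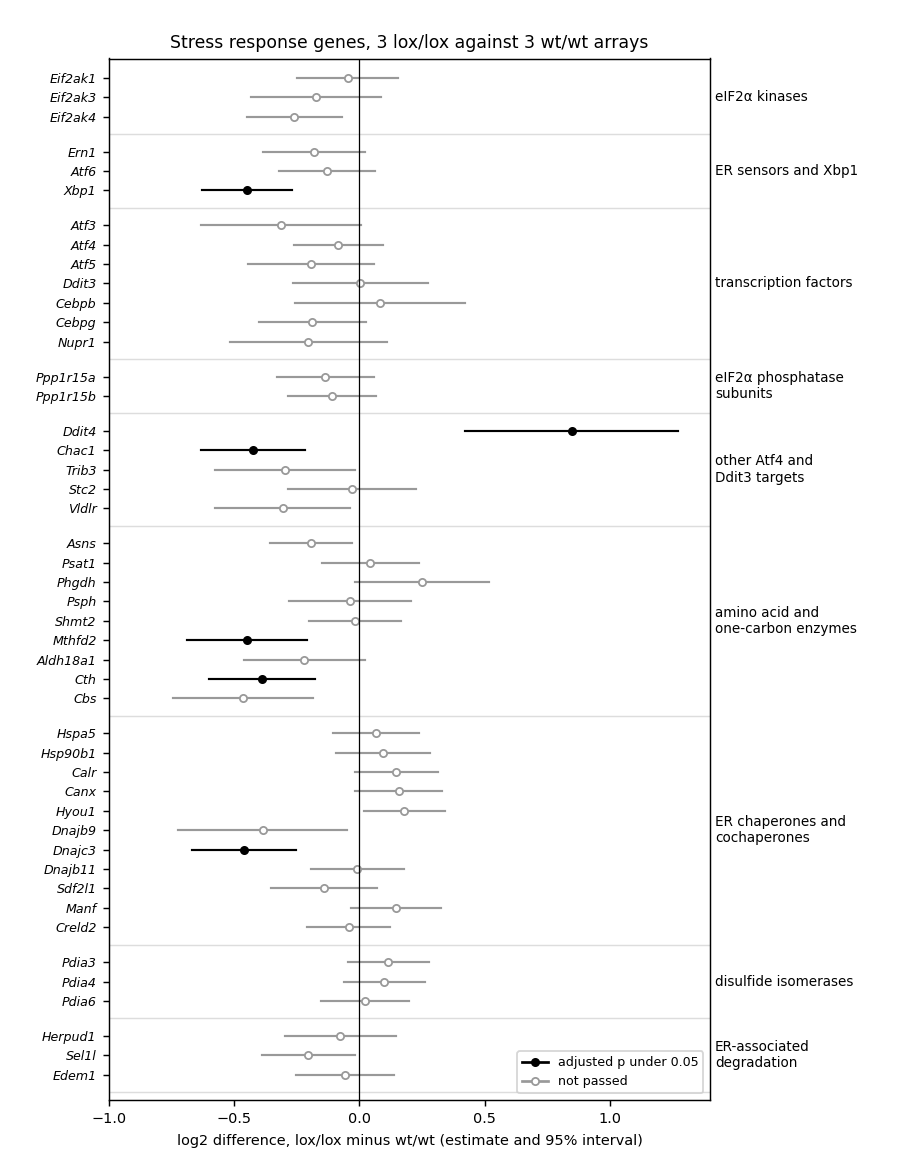
Log2 difference of each stress response gene between 3 lox/lox and 3 wt/wt arrays, with its 95% interval from limma, grouped by role. Filled points passed at an adjusted p under 0.05: Ddit4 alone on the right, and Xbp1, Chac1, Mthfd2, Cth and Dnajc3 on the left of 0.

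The eIF2alpha kinases start the response, each to its own signal. None of the 3 passed in limma (1 had an unadjusted p under 0.05), and all 3 had log2 changes below 0, where 52.5% of all genes did so. Eif2ak4 (GCN2), which senses uncharged tRNA, stood at 6.87, 6.92 and 6.93 in lox/lox replicates 1 to 3, against 7.02, 7.23 and 7.25 in wt/wt replicates 1 to 3. The groups did not overlap, but the log2 change of -0.26 (SE 0.08) did not pass (adjusted p = 0.118). Eif2ak3 (PERK), the kinase of the ER membrane, stood at 6.74, 6.55 and 6.93 in lox/lox against 6.73, 7.08 and 6.94 in wt/wt cells. Its groups overlapped, with a log2 change of -0.17 (95% interval -0.43 to 0.08). Eif2ak1 (HRI), which responds to haem shortage, had a log2 change of -0.05 (95% interval -0.25 to 0.15), and its arrays were mixed between 7.07 and 7.28 in lox/lox and between 7.16 and 7.37 in wt/wt cells.

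Among the ER sensors and their effector, Xbp1 fell and the sensors did not pass. Xbp1, the transcription factor that drives ER chaperone and degradation genes once spliced, stood at 8.37, 8.16 and 8.22 in lox/lox replicates 1 to 3, against 8.69, 8.71 and 8.69 in wt/wt replicates 1 to 3. Every lox/lox array was below every wt/wt array, and the wt/wt arrays were nearly alike. The level was 1.37-fold lower (log2 change -0.45, SE 0.08, adjusted p = 0.00855), the smallest adjusted p of the 46 genes, and the call was lost without lox/lox replicate 2 (adjusted p = 0.0507). Ern1, the sensor that splices Xbp1, stood at 4.97, 4.997 and 5.26 in lox/lox against 5.24, 5.29 and 5.25 in wt/wt cells, close to the array median. Its lox/lox replicate 3 lay within the wt/wt arrays, and the log2 change of -0.18 did not pass (adjusted p = 0.35). Atf6, a sensor that is itself cut into a transcription factor, stood at 6.43, 6.36 and 6.61 in lox/lox against 6.54, 6.66 and 6.59 in wt/wt cells, again with overlap (log2 change -0.13, adjusted p = 0.508).

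No transcription factor of the integrated stress response passed in limma. Of the 7, 0 had an unadjusted p under 0.05, where 18.0% of all genes did so. Atf4, the central activator, stood at 9.31, 9.30 and 9.42 in lox/lox replicates 1 to 3, against 9.51, 9.42 and 9.36 in wt/wt replicates 1 to 3. The groups overlapped, and the 95% interval of the log2 change ran from -0.26 to 0.09. Ddit3, which promotes cell death under lasting stress, stood at 5.69, 6.05 and 6.003 in lox/lox against 5.92, 6.09 and 5.71 in wt/wt cells. The order of its arrays was mixed, with a log2 change of 0.004 (95% interval -0.27 to 0.28). The remaining 5 (Atf3, Atf5, Cebpb, Cebpg and Nupr1) had log2 changes from -0.32 for Atf3 to 0.08 for Cebpb. Neither of the 2 phosphatase subunits that return eIF2alpha to its resting state passed in limma (0 had an unadjusted p under 0.05). Ppp1r15a (GADD34), the stress-induced one, stood at 6.03, 6.07 and 6.05 in lox/lox against 6.21, 6.31 and 6.03 in wt/wt cells, and its lox/lox arrays lay within the spread of the wt/wt arrays at the lower end. Its log2 change was -0.14 (adjusted p = 0.493), and that of Ppp1r15b, the constitutive one, was -0.11.

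**Figure D2:**
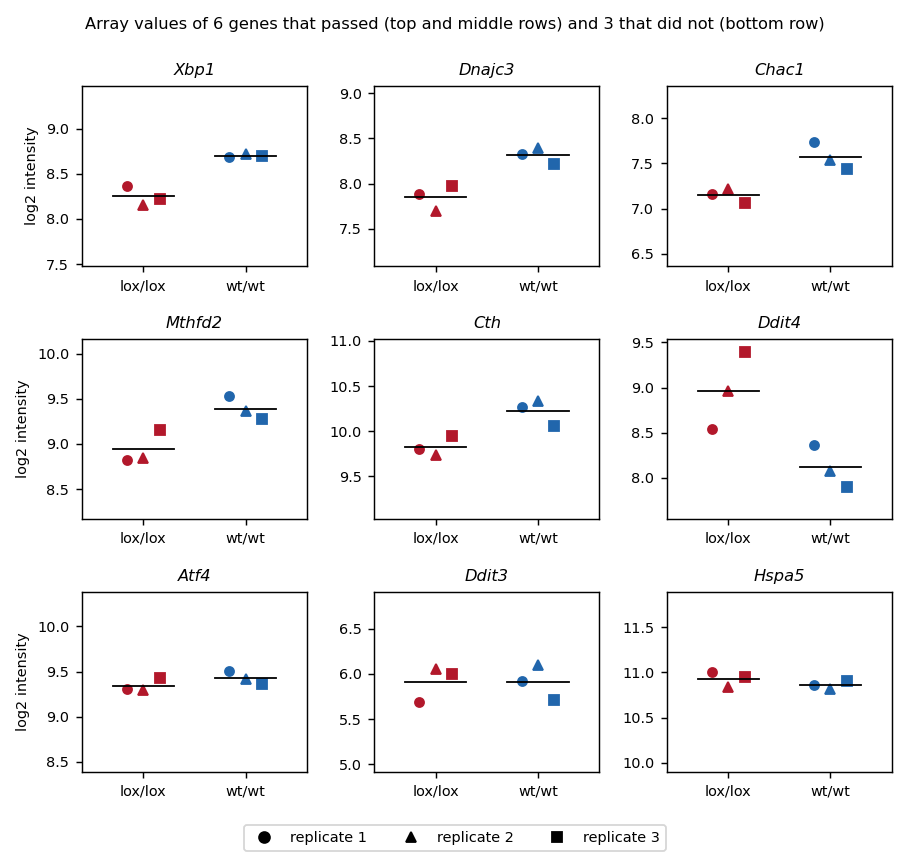
Log2 intensity of 9 genes on each array, lox/lox left and wt/wt right, with lines at the genotype means and 1 symbol per replicate number. Each panel spans the same 2 log2 units. The genotypes are apart in the 6 genes that passed and overlap in Atf4, Ddit3 and Hspa5.

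Downstream targets of Atf4 and Ddit3 outside metabolism gave 1 lower and 1 higher gene of 5, where 3.61% of all genes fell and 2.55% rose. Chac1, which breaks down glutathione and is a late target of the Atf4 and Ddit3 branch, stood at 7.17, 7.22 and 7.06 in lox/lox replicates 1 to 3, against 7.73, 7.54 and 7.44 in wt/wt replicates 1 to 3. Every lox/lox array was below every wt/wt array. Chac1 was 1.34-fold lower (log2 change -0.42, SE 0.09, adjusted p = 0.0236), and with 1 array dropped at a time it passed only when that array was wt/wt replicate 3 (highest adjusted p 0.0772, lox/lox replicate 3 dropped).

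Ddit4 (REDD1), an inhibitor of the growth kinase complex mTORC1 that also answers to hypoxia, DNA damage and glucocorticoids, went the other way. It stood at 8.54, 8.97 and 9.39 in lox/lox replicates 1 to 3, against 8.37, 8.08 and 7.90 in wt/wt replicates 1 to 3. The lox/lox arrays were all above the wt/wt arrays but spread widely. The 1.80-fold higher level passed (log2 change 0.85, SE 0.19, adjusted p = 0.0269), and with 1 array dropped its log2 change lay from 0.63 to 1.06. It then passed only when lox/lox replicate 1 or wt/wt replicate 1 was dropped (highest adjusted p 0.112, wt/wt replicate 3 dropped). Trib3, a pseudokinase that feeds back on the response, stood at 8.08, 8.24 and 8.35 in lox/lox against 8.78, 8.50 and 8.27 in wt/wt cells. Its groups overlapped through the replicates numbered 3, and its log2 change of -0.30 did not pass (adjusted p = 0.243). The lipoprotein receptor gene Vldlr, at 4.94, 4.93 and 5.33 in lox/lox against 5.52, 5.23 and 5.38 in wt/wt cells, was close to the array median. Only lox/lox replicate 3 reached the wt/wt arrays, and the log2 change of -0.31 did not pass (adjusted p = 0.207), although it did without that array (adjusted p = 0.0468). Stc2, a secreted glycoprotein, had a log2 change of -0.03.

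Enzymes of amino acid synthesis and of mitochondrial folate metabolism are the largest group of Atf4 targets among these genes. Of the 9 measured, 2 fell, where 3.61% of all genes did so, 0 rose, where 2.55% did so, and 7 did not pass. Mthfd2, a mitochondrial folate enzyme, stood at 8.82, 8.84 and 9.16 in lox/lox replicates 1 to 3, against 9.53, 9.37 and 9.28 in wt/wt replicates 1 to 3. The groups did not overlap, though lox/lox replicate 3 came close to wt/wt replicate 3. Mthfd2 was 1.37-fold lower (log2 change -0.45, SE 0.11, adjusted p = 0.036) and passed only without lox/lox replicate 3 when 1 array was dropped (highest adjusted p 0.154, lox/lox replicate 2 dropped).

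Cysteine is made from homocysteine by Cbs and then Cth. Cth stood at 9.80, 9.74 and 9.95 in lox/lox replicates 1 to 3, against 10.27, 10.33 and 10.06 in wt/wt replicates 1 to 3, with no overlap. It was 1.31-fold lower (log2 change -0.39, SE 0.10, adjusted p = 0.0393) and lost its call without lox/lox replicate 1 or 2 or wt/wt replicate 1 or 2 (highest adjusted p 0.165, lox/lox replicate 2 dropped). Cbs stood at 7.91, 7.66 and 7.35 in lox/lox against 8.09, 8.06 and 8.16 in wt/wt cells. The groups did not overlap, the lox/lox arrays were spread over more than the gap between the groups, and the log2 change of -0.46 (SE 0.13) did not pass (adjusted p = 0.0597). Cbs did pass without lox/lox replicate 1 (0.0143) and under 4 other settings, among them median centring (0.0225) and array weights (0.0415).

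Asns, asparagine synthetase and a much used readout of Atf4, stood at 12.70, 12.67 and 12.78 in lox/lox against 12.91, 12.92 and 12.89 in wt/wt cells. Every lox/lox array was below every wt/wt array by a small amount, and the log2 change of -0.19 (SE 0.07) did not pass (adjusted p = 0.185), although it did in limma's trended robust fit (adjusted p = 0.00493). Genes of serine synthesis lay on both sides of 0. Phgdh, its entry enzyme, had a log2 change of 0.25 (adjusted p = 0.323), Psat1 0.04 and Psph -0.04, and Shmt2, which passes the carbon of serine to mitochondrial folate, -0.02. A further probe set that Phgdh shares with the gene model Gm6756 stood at 9.14, 9.23 and 9.35 in lox/lox against 9.43, 9.08 and 9.14 in wt/wt cells, so the level of Phgdh is uncertain where the copies share probes. Aldh18a1, which makes the precursor of proline, had a log2 change of -0.22 (adjusted p = 0.329).

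Chaperones and cochaperones fold proteins in the ER. Of 11 measured, 1 fell, where 3.61% of all genes did so, 0 rose, where 2.55% did so, and 10 did not pass. The median log2 change was 0.07. Dnajc3 (p58IPK), a cochaperone of Hspa5 that also restrains eIF2alpha kinases, was the 1 lower gene, at 7.88, 7.69 and 7.98 in lox/lox replicates 1 to 3, against 8.33, 8.39 and 8.22 in wt/wt replicates 1 to 3. Its groups did not overlap. Dnajc3 was 1.38-fold lower (log2 change -0.46, SE 0.09, adjusted p = 0.0157), and its call was lost without lox/lox replicate 2 or wt/wt replicate 2 (adjusted p = 0.0732 and 0.0547). Both of its probe sets hold identical values, so the second adds no evidence. Dnajb9 (ERdj4), a cochaperone known as a target of spliced Xbp1, stood at 5.92, 5.63 and 6.21 in lox/lox against 6.25, 6.56 and 6.11 in wt/wt cells. Its replicates numbered 3 overlapped, and the log2 change of -0.39 did not pass (adjusted p = 0.204).

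Of the 11 chaperones and cochaperones, 6 had log2 changes above 0, none of which passed, and 5 lay below 0. Hspa5 (BiP), the main chaperone of the ER and the standard mark of ER stress, stood at 10.9996, 10.84 and 10.95 in lox/lox replicates 1 to 3, against 10.87, 10.82 and 10.90 in wt/wt replicates 1 to 3. Its groups overlapped, and the 95% interval of the log2 change ran from -0.11 to 0.24. Hyou1, a large ER chaperone related to Hsp70, stood at 9.201, 9.15 and 9.16 in lox/lox against 8.95, 8.99 and 9.04 in wt/wt cells. Its groups did not overlap, but the log2 change of 0.18 did not pass (adjusted p = 0.224). The lectin chaperones Calr and Canx had log2 changes of 0.15 and 0.16, and the secreted factor Manf 0.15. They too had all lox/lox arrays above all wt/wt arrays without passing. The lox/lox arrays lay above the wt/wt arrays in 4 of the 11 genes, where 10.1% of all genes did so. They lay below in 1, where 12.7% of all genes did so. Hsp90b1 (GRP94) had a log2 change of 0.09, and Sdf2l1, Creld2 and Dnajb11 had -0.14, -0.04 and -0.01.

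Disulfide isomerases and degradation genes had no member that passed in limma. The isomerases Pdia3, Pdia4 and Pdia6, which form the disulfide bonds of secreted proteins, had log2 changes of 0.12, 0.10 and 0.02. Of the 3, 0 had an unadjusted p under 0.05 in limma, where 18.0% of all genes did so. All lox/lox arrays lay above all wt/wt arrays in 2 of them, Pdia3 and Pdia4, where 10.1% of all genes did so. Sel1l, the partner of the ubiquitin ligase of ER-associated degradation, stood at 7.64, 7.59 and 7.73 in lox/lox against 7.76, 7.96 and 7.85 in wt/wt cells. Its groups were just apart, and its log2 change of -0.20 did not pass (adjusted p = 0.227). Herpud1 and Edem1, of the same machinery, had log2 changes of -0.08 and -0.06.

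The genes with a C/EBP-ATF element shown above were compared with those that carry the ER stress element, as a description with no test. All 7 measured genes with the C/EBP-ATF element had log2 changes below 0, from -0.42 for Chac1 to -0.08 for Herpud1, with a median of -0.30, and 1 of them, Chac1, passed. Of the 7 genes with the ER stress element 2 lay below 0, Dnajc3 at -0.46 and Creld2 at -0.04, and the median was 0.07. In this group too 1 gene passed, Dnajc3 (adjusted p = 0.0157 in limma). The other 32 measured genes had a median of -0.10, and 23 of them lay below 0. Among all 561 measured genes with TGATGNAAN in their window the median was -0.01 and 51.9% lay below 0, near the 52.5% of all genes. Among all 21 measured genes with the ER stress element, these 7 included, the median was 0.02 and 47.6% lay below 0. The shift of the first 7 genes was not even over the arrays. Their mean deviation from the mean of the 6 arrays was -0.22, -0.17 and 0.01 in lox/lox replicates 1 to 3, against 0.29, 0.13 and -0.03 in wt/wt replicates 1 to 3, so that the replicates numbered 3 of the genotypes were in reverse order. The same deviation of the 7 genes with the ER stress element stayed between -0.09 and 0.07 in lox/lox and between -0.02 and 0.01 in wt/wt cells. Of the genes that passed, Xbp1, Mthfd2 and Ddit4 had a window with neither element, and Cth had no window in the table.

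**Figure D3:**
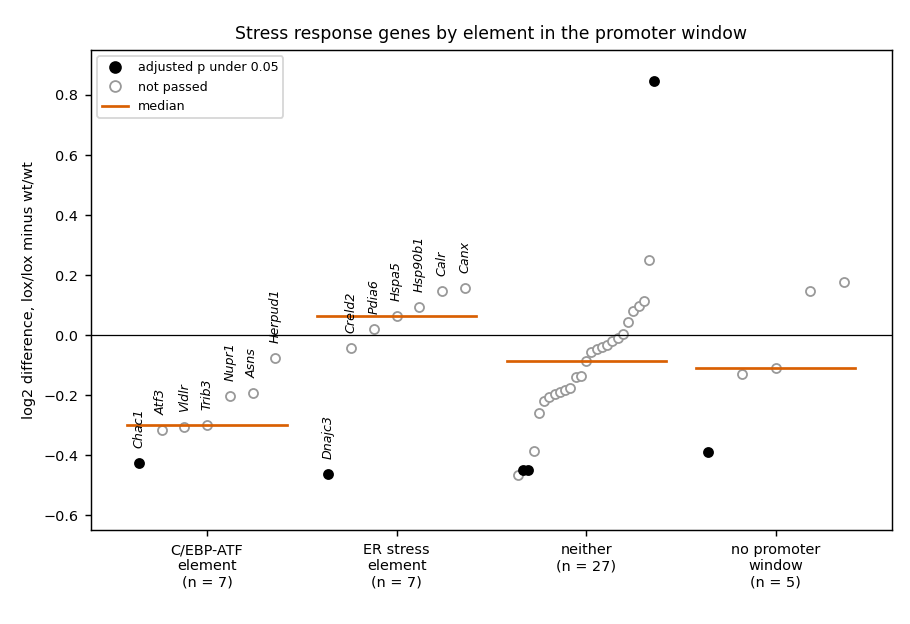
Log2 difference between lox/lox and wt/wt arrays of the 46 measured stress response genes, grouped by the element found in the promoter window, with medians as lines. The 7 genes with the C/EBP-ATF element lie below 0, while those with the ER stress element lie around 0 except for Dnajc3.

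Further genes of these pathways were taken from lists of 93 names, of which 85 were measured. Of the 85, 5 fell, where 3.61% of all genes did so, 3 rose, where 2.55% did so, and 77 did not pass. Their median log2 change was -0.01, as for all genes. Among 8 genes of the eIF2 complex, its exchange factor eIF2B and the kinase Eif2ak2, 1 fell, Eif2s2, which encodes the beta subunit of eIF2. Its mean was 10.699 ± 0.14 for lox/lox and 11.15 ± 0.22 for wt/wt cells (log2 intensity ± SD, n = 3 each), with a log2 change of -0.46 (adjusted p = 0.0497 in limma). Eif2ak2 had all lox/lox arrays below all wt/wt arrays, but its log2 change of -0.37 did not pass (adjusted p = 0.0694 in limma). Of 18 cytosolic aminoacyl-tRNA synthetases, many of them Atf4 targets, 12 had log2 changes below 0, where 52.5% of all genes did so. The 1 that fell was Wars for tryptophan (log2 change -0.29, SE 0.07, adjusted p = 0.046 in limma). With 1 array dropped, Eif2s2 passed in 2 of the 6 fits (highest adjusted p 0.178) and Wars in 0 (highest adjusted p 0.155), each highest value with lox/lox replicate 2 dropped.

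Of 10 further amino acid and folate enzymes, 7 lay below 0, where 52.5% of all genes did so. The 1 that fell was Oat, the mitochondrial ornithine aminotransferase. Its mean was 8.76 ± 0.12 for lox/lox and 9.36 ± 0.11 for wt/wt cells (log2 intensity ± SD, n = 3 each), 1.52-fold lower, with an adjusted p of 0.00378, and of 0.025 at most with any 1 array dropped. Among 10 further targets of Atf4 or of stress, Vegfa, the growth factor of blood vessels, was 1.56-fold lower (log2 change -0.64, adjusted p = 0.0133). It lost its call without lox/lox replicate 2 (adjusted p = 0.0718). Sesn2, which like Ddit4 holds back mTORC1 and answers to both Atf4 and p53, was 1.39-fold higher, at 9.46, 9.34 and 9.44 in lox/lox replicates 1 to 3 against 9.10, 8.89 and 8.84 in wt/wt replicates 1 to 3. Its call (adjusted p = 0.0114) was lost without wt/wt replicate 3 (adjusted p = 0.0601).

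Of 26 further genes of ER folding, export and degradation, 17 lay above 0, 9 lay below 0, where 52.5% of all genes did so, and 1 rose, H13 (listed as Hm13), the signal peptide peptidase of the ER membrane. H13 was 1.90-fold higher, with a mean of 7.82 ± 0.08 for lox/lox and 6.896 ± 0.14 for wt/wt cells (log2 intensity ± SD, n = 3 each, adjusted p = 0.000334 in limma), and passed whichever array was dropped. Among 7 cytosolic heat shock genes, Bag3, a cochaperone of Hsp70 that directs proteins to autophagy, was 1.82-fold higher, with a mean of 6.58 ± 0.18 for lox/lox and 5.72 ± 0.19 for wt/wt cells (log2 intensity ± SD, n = 3 each, adjusted p = 0.00197 in limma). It also passed whichever array was dropped. Among 7 mitochondrial chaperones and proteases, the protease gene Htra2 was 1.30-fold lower (log2 change -0.38, adjusted p = 0.021), and with 1 array dropped it passed in 2 of the 6 fits (highest adjusted p 0.0926, wt/wt replicate 3 dropped).

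**Figure D4:**
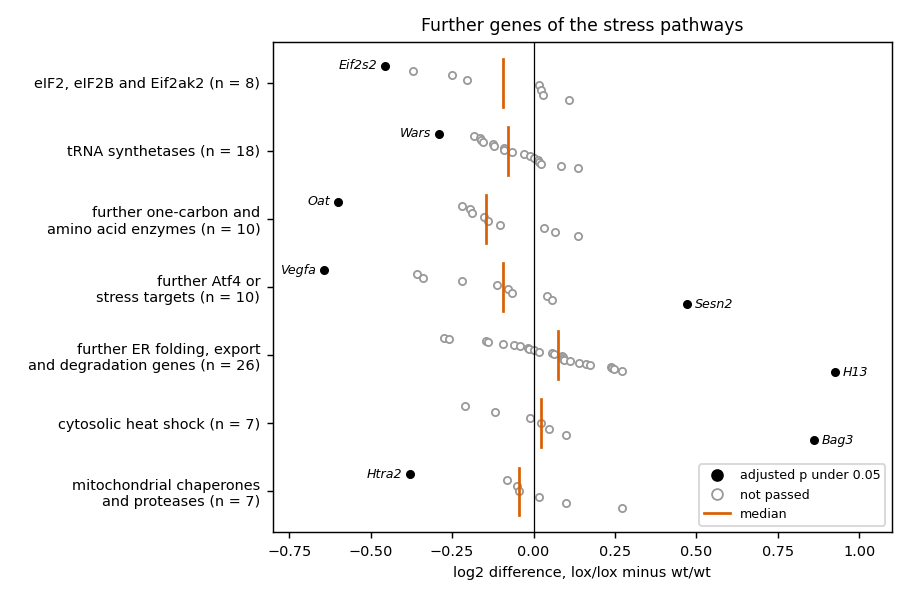
Log2 difference between lox/lox and wt/wt arrays of further stress pathway genes by list, with medians as lines. The 8 filled points passed at an adjusted p under 0.05: Sesn2, H13 and Bag3 on the right, and Eif2s2, Wars, Oat, Vegfa and Htra2 on the left of 0.

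**Figure D5:**
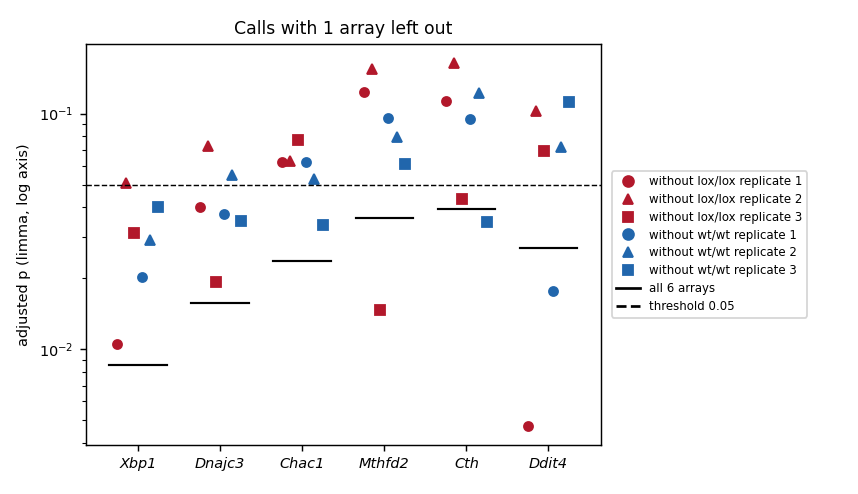
Adjusted p in limma (log axis) of the 6 stress response genes that passed, with all 6 arrays (lines) and with 1 array left out (symbols by genotype and replicate number). None of the 6 genes stays under 0.05 in all 6 fits. Xbp1 leaves it only without lox/lox replicate 2, at 0.0507.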

How the data were processed

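RNA of 6 cultures was hybridised to Affymetrix Mouse Gene 1.0 ST arrays. The authors deposited log2 values for 35556 probe sets, made by RMA (package affy, per the submitters' processing notes, with no version, option or genome build in the sources used here). RMA scales the arrays to a like distribution, so a change of total RNA per cell cannot be seen, and folds of genes near the array median are understated. Scanner files were not used.

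Symbols came from the platform annotation: 21789 probe sets had 1 symbol, 1621 several, and 12146 were unnamed here. A gene was read from its single-symbol probe set with the highest mean, giving 19938 genes. Changed names were matched through RefSeq synonyms, and promoter windows come from RefSeq build GRCm38.p6. The fit was limma (3.58.1, R 4.3.3) of lox/lox minus wt/wt, with moderated variances (prior 6.14, residual 4 degrees of freedom), two-sided p, and Benjamini-Hochberg adjustment over all genes at 0.05. Replicates are biological per the design text. The code was tested on simulated arrays.

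The genes, lists and alternatives were chosen with earlier results of these data known. Array values are given for each gene that passed, for the pathway core (Atf4, Ddit3, Xbp1, Hspa5, Eif2ak1, Eif2ak3, Eif2ak4, Ern1, Atf6, Asns, Ppp1r15a, Trib3) and for genes with an unadjusted p under 0.05. Of each further list the called genes are named. Alternatives were 3 other scalings, a filter on dim genes (8538 removed), the mean of a gene's probe sets, all probe sets, a trended robust fit, array weights, the replicate block, dropped arrays, an adjusted p under 0.01 and a 1.5-fold minimum.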

Additional observations from a re-analysis of the deposited data

How the results depend on the processing

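Scaling (quantile, median centring, cyclic loess), the dim filter, the mean of probe sets, the trended robust fit and array weights gave 5 to 7 lower stress response genes, with Ddit4 as the higher one, and a median log2 change between -0.12 and -0.07. The additional lower genes were Cbs with median centring (adjusted p = 0.0225), the dim filter (0.0432), the trended robust fit (0.0232) and array weights (0.0415), and Asns with the trended robust fit (0.00493). With all probe sets adjusted together, 548 of all genes passed, with 1 lower stress response gene (Xbp1) and 0 higher, and the cause was not tested. With 1 array dropped, 626 to 1132 of all genes passed, with 0 to 5 lower and 0 to 1 higher, and the median lay between -0.14 and -0.07. Without both lox/lox replicate 3 and wt/wt replicate 2 the counts were 697, 3 and 0. They were 553, 1 and 0 at an adjusted p under 0.01, and 451, 0 and 1 with a change of at least 1.5-fold. Further pathway genes numbered 1 to 8 lower and 2 to 4 higher over these settings. The medians were -0.37 to -0.19 for genes with the C/EBP-ATF element and 0.03 to 0.11 for those with the ER stress element.

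Same-numbered arrays of the genotypes had correlations of deviations of 0.101, -0.228 and -0.103, so the numbers were not taken as pairs. With the replicate block 3 lower stress response genes passed (Xbp1, Dnajc3 and Chac1), Mthfd2 and Cth having adjusted p of 0.0509 and 0.069, and Ddit4 kept its call.

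Signs turned only in genes near 0, none of them called. Shmt2 had 0.011 with quantile scaling, 0.0048 with cyclic loess and -0.094 to 0.038 with arrays dropped. Dnajb11 had 0.018, 0.017 and -0.067 to 0.032 in the same settings. Ddit3 had -0.015 with median centring, -0.0029 with cyclic loess and -0.093 to 0.118 with arrays dropped. Pdia6 had -0.012 with array weights and -0.041 to 0.067 with arrays dropped. With arrays dropped, the ranges were -0.145 to 0.021 for Psph, -0.099 to 0.024 for Edem1, -0.088 to 0.017 for Eif2ak1, -0.156 to 0.080 for Stc2, -0.042 to 0.105 for Psat1, -0.167 to 0.0026 for Herpud1 and -0.108 to 0.241 for Cebpb. The cause of these turns was not tested.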

Other observations

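Other probe sets of the stress response genes gave log2 changes of 0.01 for Pdia4 (0.10 in the probe set used) and -0.06 for Ppp1r15b (-0.11 in the probe set used), none of which passed in limma.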
